A study of Ovis aries with 4 samples.

Results

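Stop codon labelled peaks within 1 exon are stretches of transcript enriched in m6A immunoprecipitates of sheep ovary, which the deposited annotation assigns to a stop codon and which cross no intron. A peak entered the set when its annotation read stop codon and its deposited width equalled the distance from its start to its end. Of 8034 deposited peaks, 1999 met this rule. The young list held 884 of them on the plus strand and 688 on the minus strand, the aged list 414 on the plus strand and 13 on the minus strand.

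The tissue was ovary of Cele black sheep, taken at 1 to 2 years (young) or at 5 to 6 years (aged). At each age there was 1 library of RNA fragments pulled down with an antibody against m6A and 1 input library without antibody, 4 samples in all. The 2 immunoprecipitates each had 1 deposited list of peaks, and the inputs were not used here. Whether a sample came from 1 animal or from a pool is not given in the sources used here, nor is the sequencing depth. Since each age had 1 list, differences between the ages carry no replicate check, and no p-value was computed across ages or strands. The 95% intervals printed below cover counting error only, with the peaks taken as independent.

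N6-methyladenosine (m6A) is a methyl group set on internal adenosines of messenger RNA by a nuclear writer complex around METTL3 and METTL14. It is known to be dense around stop codons and in 3' UTRs, and reader proteins with a YTH domain tie it to splicing, translation and decay of the transcript. In the ovary the mark is best known from the oocyte, where readers take part in the clearing of maternal transcripts.

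The peaks came from genes of several ovarian cell types. Of 32 marker genes, 13 had a young peak of any label, and 6 of these had a stop codon labelled peak within 1 exon. These were the steroidogenic genes STAR (deposited fold enrichment 2.75) and CYP17A1 (1.56), the granulosa genes FSHR (1.60) and INHBB (1.58), the macrophage gene CD68 (1.60) and the endothelial tight junction gene CLDN5 (1.5). Among aged peaks 10 marker genes had a peak and 2 had a stop codon labelled one, FSHR (2.54) and INHBB (1.85). A fold enrichment is the authors' ratio of immunoprecipitate to input at the peak and is used here to describe and rank peaks within a list, and once to order overlapping pairs. Over all genes with a peak, 40.8% (young) and 13.8% (aged) had such a peak. A gene without a peak says nothing of its expression.

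The aged list was nearly devoid of these peaks on the minus strand. In the young list they made up 37.0% of all peaks on the plus strand (95% interval 35.1 to 39.0) and 34.6% on the minus strand (32.5 to 36.7), a difference of 2.41 percentage points (-0.442 to 5.25). The aged shares were 22.1% on the plus strand (20.3 to 24.0) and 0.73% on the minus strand (0.427 to 1.24), a difference of 21.4 points (19.5 to 23.3). They lay below the young ones by 14.9 points on the plus strand (12.2 to 17.6) and by 33.9 points on the minus strand (31.7 to 36).

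Peaks labelled 3' UTR within 1 exon took larger shares where these peaks took smaller ones. They made up 42.0% (plus) and 44.4% (minus) of the young peaks, and 49.3% (plus) and 67.4% (minus) of the aged peaks. As parts of the same total, the shares of these labels are not independent. Counted over genes with a peak on the strand, 42.8% of young plus-strand and 38.5% of young minus-strand genes had a stop codon labelled peak within 1 exon, against 26.2% and 0.86% in the aged list. The plot of label shares shows the aged minus strand standing apart from the other 3 groups.

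**Figure D1:**
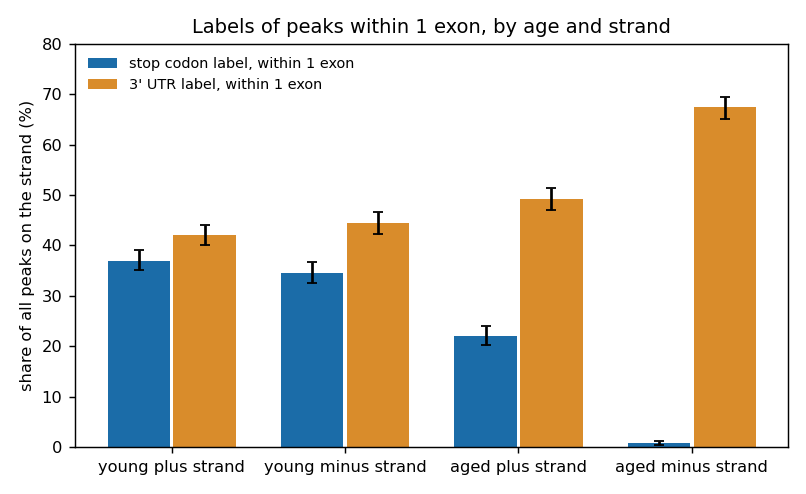
Share of all peaks on a strand, in percent, that were labelled stop codon (blue) or 3' UTR (orange) and lay within 1 exon, for each age and strand. Bars are shares of 1 list and error bars are Wilson 95% intervals; the stop codon bar is 37.0% and 34.6% on the young strands, 22.1% on the aged plus strand and 0.73% on the aged minus strand.

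The strand difference of the aged list was spread over the genome. Among the 27 chromosomes with at least 10 peaks on each strand, the aged plus-strand share was above the minus-strand share on 27, and it ranged from 11.1% to 30.0% with a median of 20.3%. The aged minus-strand share ranged from 0% to 3.17% and was 0% on 19 of them. In the young list the plus-strand share was the larger on 16 of the 27 chromosomes, with medians of 35.8% on the plus and 35.5% on the minus strand. No single chromosome thus carried the aged difference.

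The rule leaves out stop codon labelled peaks that cross an intron. Members of the set were 85.8% of the stop codon labelled peaks on the young plus strand, 88.7% on the young minus strand and 80.4% on the aged plus strand. On the aged minus strand they were 13 of 46, or 28.3%. The peaks nearest outside the rule spanned 6 bases more than their width in FAM180B (young) and 7 bases more in ZDHHC18 (aged).

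Outside the aged minus strand, most of the peaks ended at the end of the gene. The gene end here is the final base that a RefSeq gene table gives for the gene, and a stop codon lies upstream of it, before the 3' UTR. The 3' boundary of the peak was that base in 662 of 883 young plus-strand members with a table entry (75%, 72.0 to 77.7) and in 506 of 683 young minus-strand members (74.1%, 70.7 to 77.2). It was so in 294 of 413 aged plus-strand members (71.2%, 66.6 to 75.3) and in 0 of 13 on the aged minus strand, where a count of 0 allows a share of up to 23.1%. Within 10 bases of the end the shares were 83.2%, 81.0%, 81.1% and 0%. Ending at the last base was not limited to members. Of stop codon labelled peaks across introns, 64 of 146 (43.8%, young plus), 42 of 88 (47.7%, young minus) and 36 of 101 (35.6%, aged plus) did so. On the aged minus strand 0 of 33 did, where a count of 0 allows up to 9.09%. Positions of coding sequences were not used here, so how many of these peaks also cover a stop codon is unknown, and the name stop codon labelled stands for the label alone.

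Peaks labelled 3' UTR within 1 exon almost never reached the last base. Their boundary lay there in 1 of 997 young plus-strand peaks and in 0 of 879, 0 of 919 and 0 of 1196 in the young minus, aged plus and aged minus groups. They more often stopped 48 to 50 bases short of it, in 9.73% and 12.3% of peaks on the young plus and minus strands and in 9.58% on the aged plus strand. On the aged minus strand 22.7% did so (20.5 to 25.2), 13.2 points more than on the aged plus strand (10.1 to 16.2). The same strand difference was 2.56 points in the young list (-0.274 to 5.44).

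Counting both positions together did not make the 4 groups equal. Of the peaks within 1 exon with either label, 40.4% of young plus-strand and 39.4% of young minus-strand peaks ended at the last base or 48 to 50 bases before it. The shares were 28.7% on the aged plus strand (26.3 to 31.2) and 22.6% on the aged minus strand (20.3 to 25). The aged minus-strand value came from 273 peaks 48 to 50 bases short and 0 at the end.

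**Figure D2:**
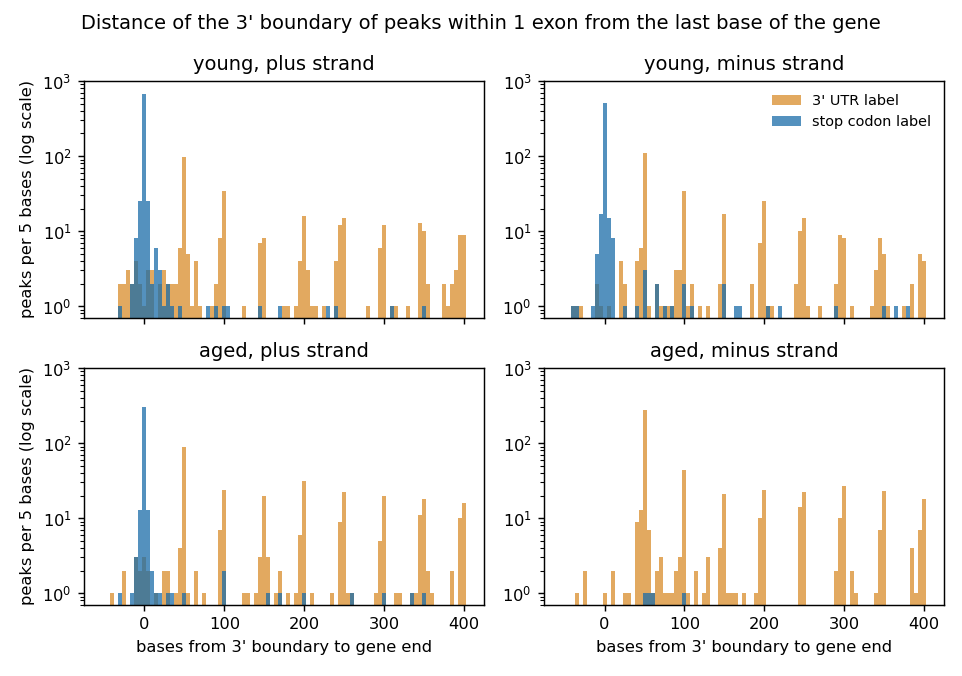
Distance in bases from the 3' boundary of a peak to the last base of its gene (0 is the last base and negative values lie beyond it), for peaks within 1 exon, with the number of peaks per 5 bases on a log scale. Stop codon labelled peaks (blue) stand at 0 in both young groups and on the aged plus strand and are missing there on the aged minus strand, where 3' UTR labelled peaks (orange) stand highest at 48 to 50 bases.

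The plot of distances to the gene end shows 3' UTR labelled peaks recurring at intervals of about 50 bases and the stop codon labelled peaks almost only at 0. A smaller number of the stop codon labelled peaks lay well inside the gene. More than 1000 bases before the end lay 92 young plus-strand, 74 young minus-strand, 44 aged plus-strand and 9 aged minus-strand members. Between 51 and 1000 bases before it lay 22, 31, 21 and 3. More than 10 bases past the table's gene end lay 19, 16, 9 and 0.

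The share at the gene end was about as high in genes with a single annotated transcript as in the whole set. Among genes with 1 transcript, 199 of 265 young plus-strand members (75.1%), 141 of 188 young minus-strand members (75%) and 79 of 104 aged plus-strand members (76.0%) ended at the last base. Among genes with at least 8 transcripts the shares were 76.6%, 69.0% and 70.7%. The 13 aged minus-strand members came from genes with a median of 10 transcripts, none with 1, whereas the median was 3 in the other groups. Their genes had a median length of 61.9 kb, against 19.2, 24.2 and 21.1 kb for the young plus, young minus and aged plus members and 34.4 to 37.0 kb for 3' UTR labelled peaks.

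Where a gene had both kinds of peak within 1 exon, the stop codon labelled one was usually the more distal. It lay 3' of the 3' UTR labelled peak in 113 of 114 young plus-strand pairs, 61 of 64 young minus-strand pairs and 58 of 62 aged plus-strand pairs. The median gap between them was 944, 899 and 572 bases. On the aged minus strand it did so in 2 of 5 pairs. A peak at the last base lies 3' of any separate peak of its gene, so these counts partly restate the gene-end result. INHBB, which encodes the beta B subunit of inhibin B and activin B, had such a pair at both ages. Its 3' UTR labelled peak ended 1198 bases before the gene end at both ages, and its stop codon labelled peak ended at the last base.

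Young members overlapped the aged list to a like extent on both strands. Among young members, 280 of 884 on the plus strand (31.7%, 28.7 to 34.8) and 213 of 688 on the minus strand (31.0%, 27.6 to 34.5) overlapped an aged peak of any label on the same strand, by 1 base or more. The difference was 0.715 points (-3.92 to 5.30), and 34.3% of all young peaks overlapped an aged one. Among aged members 251 of 414 on the plus strand (60.6%, 55.8 to 65.2) and 8 of 13 on the minus strand (61.5%, 35.5 to 82.3) overlapped a young peak, against 41% of all aged peaks. With only peaks of at least 2-fold in both lists the overlap was 16.3% (plus) and 19.2% (minus) of the young members. Of the aged members it was 38.1% (plus) and 40% (minus, 5 members left). The share over all peaks was not computed at this cut, so whether the drop is particular to the members is unknown.

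The label of the overlapping aged peak differed by strand. On the plus strand the aged peak was labelled stop codon for 224 of the 280 young members (80%, 74.9 to 84.3) and 3' UTR for 56. On the minus strand it was labelled stop codon for 11 of 213 (5.16%, 2.91 to 9.01) and 3' UTR for 199 (93.4%). Of all aged peaks 27.5% (plus) and 2.58% (minus) carried the stop codon label, peaks across introns included. The rate of overlap was thus alike on both strands. On the minus strand the overlapping aged peak mostly carried the 3' UTR label, and few aged minus-strand peaks of any kind carried the stop codon label.

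The 3' boundaries of these pairs showed the same strand difference to the base. On the plus strand, 223 of 283 pairs of a young member and an aged peak shared the same 3' boundary (78.8%, 73.7 to 83.2), and in all 223 the aged peak was labelled stop codon. In 32 further plus-strand pairs the aged boundary lay 48 to 50 bases short, and all 32 aged peaks were labelled 3' UTR. On the minus strand 0 of 214 pairs shared the boundary, where a count of 0 allows up to 1.4%. In 183 of them (85.5%) the aged boundary lay 48 to 50 bases short, 175 of these with a 3' UTR label, and in 4 it lay further 3'.

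**Figure D3:**
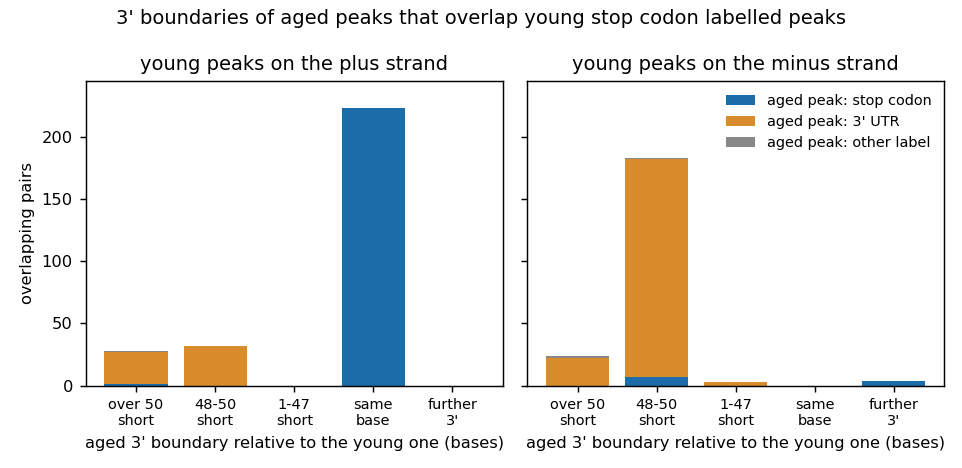
Number of overlapping pairs of a young stop codon labelled peak within 1 exon and an aged peak, by where the aged 3' boundary lay relative to the young one, in bases, with the aged label in colour. On the plus strand 223 of 283 pairs share the base, all with an aged stop codon label, and on the minus strand 183 of 214 aged boundaries lie 48 to 50 bases short.

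The offset was not limited to peaks at gene ends. Minus-strand pairs whose young member ended at the gene end were short by 48 to 50 bases in 134 of 154, and the other minus-strand pairs in 49 of 60. On the plus strand 165 of 204 pairs at the gene end and 58 of 79 other pairs shared the boundary. Pairs of 3' UTR labelled peaks within 1 exon shared the 3' boundary in 132 of 295 plus-strand (44.7%) and 79 of 281 minus-strand cases (28.1%). The aged boundary lay 48 to 50 bases short in 13.2% of those plus-strand and 32.7% of those minus-strand pairs. It lay further 3' than the young one in 97 of the 295 plus-strand and 68 of the 281 minus-strand pairs. The cause of these offsets was not tested.

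Single genes show the offset. DECR1, a mitochondrial enzyme of unsaturated fatty acid oxidation, had a young peak that reached the gene end on chromosome 9 (86594921 to 86595115, fold 3.00) and an aged peak labelled 3' UTR (86594970 to 86595213, fold 2.94) that stopped 49 bases short. PCK2, the mitochondrial phosphoenolpyruvate carboxykinase, had a young peak at the last base on chromosome 7 (20852807 to 20853003, fold 2.80) and an aged one 49 bases short (20852856 to 20853053, fold 3.00). ARHGAP25, a Rac GTPase activating protein (2.78 and 3.20), and the kinase STK38 (3.00 and 2.75) stopped 50 bases short in the aged list. For ATRN (2.86 and 2.81) the aged boundary was 150 bases short of the young one. These peaks, each 151 bases wide, met only at base 51261439 of chromosome 13, so they lay side by side. On the minus strand the coordinate of the 3' boundary is the start of the peak.

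Where both ages had a member on the plus strand, the 3' boundary was nearly always the same. Of 215 such pairs, 214 shared the 3' boundary and 62 shared both boundaries. Peaks that both end at the last base of a gene share that boundary, so the count of 214 partly restates the gene-end result. Pairs were ordered by whichever fold, young or aged, was lower, although fold scales may differ between the lists. The leading pairs lay in HDGFL3 (5.00 young, 2.92 aged) and CBLN2, a synaptic organiser (2.90 and 2.75), both on unplaced sequences. Next came the zinc finger gene ZNF8 on chromosome 14 (2.71 and 3.54), PARP14 on chromosome 1, which encodes an ADP-ribosyltransferase (2.70 and 3.73), and BFAR on chromosome 24, an apoptosis regulator (3.67 and 2.67). The PARP14 peaks (187897371 to 187897520) and the BFAR peaks (14090292 to 14090440) were identical at both ages and ended at the gene end. The ZNF8 peaks shared their end (66273442), and the aged one began 200 bases further 5'.

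On the minus strand 7 genes had overlapping members of both ages, and in none did the 3' boundary coincide. They were PRKAG3, a regulatory subunit of AMP-activated kinase, IGF1, insulin-like growth factor 1, GSN, the actin-severing gelsolin, EME1, a subunit of a structure-specific DNA endonuclease, POMC, the precursor of corticotropin and melanocortins, the glutathione transferase GSTA1 and KYAT3, a kynurenine aminotransferase. The aged boundary lay 50 bases short in GSN, EME1 and GSTA1, the only 3 of the 7 whose young peak ended within 12 bases of the gene end. It lay further 3' by 50 bases in PRKAG3 and POMC, 49 in KYAT3 and 200 in IGF1, whose young boundaries were 150 to 12584 bases inside the gene. GSTA1 has near-identical family members, so its peaks are uncertain.

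The 13 aged minus-strand members lay away from gene ends. Their distance to the gene end was 50 bases in EME1, 53 in GSN, 62 in GSTA1 and 100 in POMC, and 1093 to 12535 bases in the other 9. The highest folds were those of LOC114108679 (3.25), TIMM9, a chaperone of the mitochondrial intermembrane space (2.93), GSN (2.34, deposited adjusted p 0.055), PRKAG3 (2.33) and IGF1 (2.00). POMC (1.86), the transcription factor NFIC (1.77), EME1 (1.73), RBM26, an RNA-binding protein (1.73), and the homeobox factor MEIS2 (1.70) followed. MEF2C, a MADS-box transcription factor (1.67), GSTA1 (1.60) and KYAT3 (1.53) were lowest. TIMM9 had 2 further aged peaks, in its 3' UTR and 5' UTR by label, with the same deposited log10 p of -6.17, and MEIS2 had a 3' UTR labelled peak (1.81) 3' of its stop codon labelled one. In RBM26 the overlapping young peak was labelled 3' UTR (2.12).

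Counted by gene, somewhat over 50% of the genes with an aged member also had a young one. On the plus strand 218 genes had a member at both ages, 24.7% of the 882 young and 52.8% of the 413 aged genes, against 22.5% of all genes with an aged plus-strand peak that had a young member. On the minus strand 7 genes did, 1.02% of the 687 young and 53.8% of the 13 aged genes, against 18.3% of all genes with an aged minus-strand peak. Of the young plus-strand genes, 136 had an aged peak of other kinds only and 528 (59.9%) had no aged peak, as had 57.1% of all genes with a young plus-strand peak. Of the young minus-strand genes, 270 had an aged peak of other kinds only, 243 of them with a 3' UTR label, and 410 (59.7%) had no aged peak, as had 56% of all genes with a young minus-strand peak. A gene absent from a list had no deposited peak and was not shown to lack the mark.

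The highest young folds belonged to AGBL5, a tubulin deglutamylase, with 6.60 on chromosome 3 (34152644 to 34152844), MYCT1 with 6.00, LRRC2 with 5.89, the deubiquitinase USP34 with 5.75 and the cholesterol exporter ABCA1 with 5.33. All 5 are plus-strand genes and all 5 peaks ended at the gene end. Genes known by a LOC number were left out here and in the young minus-strand ranking below. AGBL5 and ABCA1 had no aged peak. The aged MYCT1 peak had the same start (77462990), stopped 49 bases short, carried a 3' UTR label and had a fold of 2.00. LRRC2 had an aged 3' UTR labelled peak 197 bases short (1.5), and USP34 an exon labelled one 650 bases short (1.88).

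On the young minus strand the leading genes were WASF3, an actin regulator (5.25), the dynein heavy chain DNAH3 (5.2), the mitochondrial nucleotide kinase CMPK2 (5.00), BASP1 (4.25) and the immunoglobulin joining chain JCHAIN (4.25). The JCHAIN peak was weak by the deposited adjusted p of 0.0708. WASF3 had an aged peak with the same 5' boundary (33198052), a 3' UTR label and a fold of 2.55, which stopped 50 bases short. The young BASP1 peak ended 76 bases past the table's gene end and the aged one, labelled 3' UTR (2.40), 27 bases past it.

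On the aged plus strand the leading genes were the centrosomal gene WDR62 (8.00), C12H1orf159 (5.37), ACSL5, which activates long-chain fatty acids (5.12), TMEM25 (4.33) and PARP14 (3.73). WDR62 ended 3 bases past the table's gene end, and C12H1orf159, ACSL5 and PARP14 at the last base. TMEM25 ended 11629 bases before it. Of these only PARP14 had a young peak. Genes known by a LOC number were left out of this ranking. Among them LOC105607199 had an aged fold of 5.4 and an overlapping young member with 2.05.

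Most members were narrow. The young members had a median width of 194 bases on the plus strand (range 139 to 641) and 195 on the minus strand (142 to 599). The aged ones had medians of 200 (144 to 998) and 249 (146 to 351). Of the young plus-strand members 49.0% were at most 152 bases wide, as were 46.7% of the young minus-strand, 33.1% of the aged plus-strand and 38.5% of the aged minus-strand members. The 3' UTR labelled peaks had medians of 151 bases on both young strands and 200 bases on both aged strands.

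The narrowest and widest members were LOC101117395 (139 bases) and the mitochondrial processing peptidase subunit gene PMPCB (641 bases, fold 4.25) on the young plus strand, and LOC101110974 (142 bases) and ZPR1, a zinc finger protein gene (599 bases, fold 3.89), on the young minus strand. On the aged plus strand they were ESM1, which encodes the endothelial proteoglycan endocan (144 bases), and IRAG1, a partner of cGMP-dependent kinase (998 bases). The ESM1 peak had the same boundaries at both ages, with folds of 2.00 and 2.64. The IRAG1 peaks shared their 3' boundary, 8 bases past the table's gene end, and the young one was 549 bases wide.

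Few genes had 2 members in a list. In the young list these were the stress kinase gene MAPK14, the coenzyme A biosynthesis gene PPCDC and RBPJ, the DNA-binding partner of NOTCH. In the aged list it was TIMP2, an inhibitor of matrix metalloproteinases. In each of the 4 genes 1 of the peaks ended at the gene end. The other lay further 5', by 1980 bases in MAPK14 (folds 1.69 and 1.87 from 5' to 3'), 350 in PPCDC (3.75 and 1.82), 3895 in RBPJ (2.36 and 2.21) and 2590 in TIMP2 (2.22 and 1.51).

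In the young list the members had lower folds than 3' UTR labelled peaks but stronger deposited p-values. A fold of at least 2 was deposited for 58.3% of all young and 42.7% of all aged peaks. Of the young plus-strand members 52% reached it, against 61.7% of 3' UTR labelled peaks, a difference of -9.68 points (-14.1 to -5.2). On the young minus strand the shares were 49.9% and 64.9%, a difference of -15 points (-19.9 to -10.1). On the aged plus strand they were 47.6% and 44.3%, a difference of 3.27 points (-2.48 to 9.04). On the aged minus strand 5 of 13 members (38.5%) reached it, against 42.0% (difference -3.50 points, -24.4 to 22.7). Of stop codon labelled peaks across introns, 58.2% (young plus), 37.5% (young minus), 44.6% (aged plus) and 27.3% (aged minus) reached it.

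The median deposited log10 p of the members was -20.1 on the young plus strand and -19.7 on the young minus strand, against -13.5 and -13.6 for 3' UTR labelled peaks. In the aged list it was -8.93 on the plus and -7.86 on the minus strand, against -6.01 and -6.11. At like fold the order was the same in the 3 larger groups. Between folds of 2 and 3, for example, the medians were -19.4 against -13.2 on the young plus strand, -19.1 against -13.5 on the young minus strand and -8.93 against -5.96 on the aged plus strand. An adjusted p above 0.05 was deposited for 2 of 884 young plus, 2 of 688 young minus, 8 of 414 aged plus and 1 of 13 aged minus members. Among 3' UTR labelled peaks within 1 exon it was deposited for 0 of 1003, 1 of 883, 24 of 923 and 42 of 1201. Stop codon labelled peaks across introns had median log10 p of -17.1 (young plus), -19.6 (young minus), -7.29 (aged plus) and -5.01 (aged minus). Outside the aged minus strand these too were stronger than those of 3' UTR labelled peaks, so this trait was not particular to the members. A p-value moves with read number as well as with fold, and the reads behind the peaks are unknown.

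**Figure D4:**
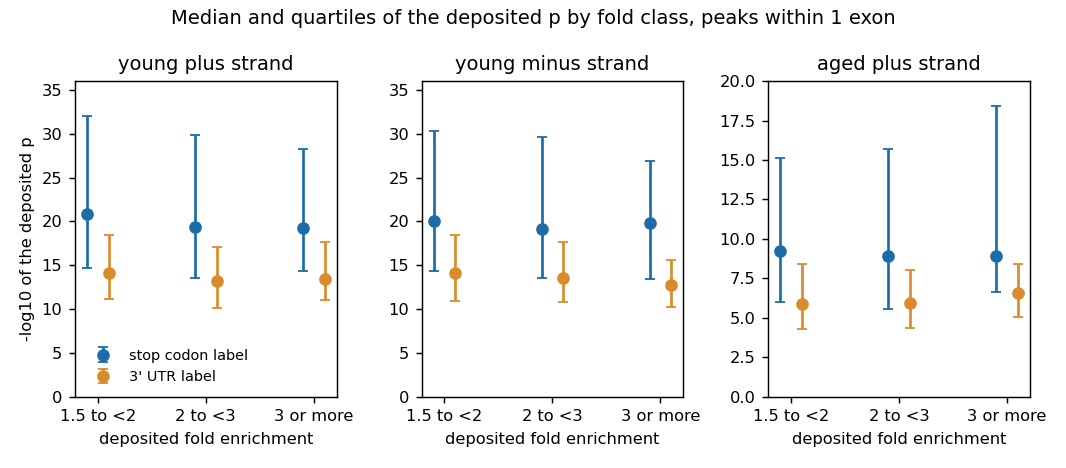
Median (points) and quartiles (bars) of minus log10 of the deposited p, by class of deposited fold, for stop codon labelled (blue) and 3' UTR labelled (orange) peaks within 1 exon; the vertical scale of the aged panel differs from that of the young panels. The stop codon medians lie higher in each class, as at folds from 2 to 3 with 19.4 against 13.2 on the young plus strand.

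Genes of steroid synthesis and cholesterol supply carried members at both ages. In the young list 8 of 15 genes with a peak had a member, 6 of 10 on the plus and 2 of 5 on the minus strand. Of 14 genes with an aged peak 4 did, all of them on the plus strand. Over all genes with a peak the shares were 42.8% (young plus), 38.5% (young minus), 26.2% (aged plus) and 0.86% (aged minus), and the steroid group was not tested against them. STAR, which brings cholesterol into mitochondria, had a young peak on chromosome 26 (32408293 to 32408590) that ended 1455 bases before the gene end, with a log10 p of -3.6. CYP17A1, the 17-alpha-hydroxylase needed for androgens, had one at the gene end (log10 p -23.9), as had FDXR, the reductase that feeds electrons to mitochondrial P450 enzymes (fold 1.59, log10 p -62.5). ABCA1 was the highest of the group.

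The same 4 genes of that group had a member at both ages. SOAT1, which esterifies cholesterol, had a young fold of 3.00 and an aged fold of 2.19, and both peaks ended on the same base of chromosome 12 (60078043). FDX1, the ferredoxin of steroid hydroxylation (1.63 and 1.55), ABCG1, a sterol exporter (2.00 and 1.86), and FDFT1, squalene synthase (1.84 and 2.49), also kept their 3' boundary between the lists. In FDX1 a 3' UTR labelled peak with the same boundaries at both ages lay 5' of it.

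Among genes of the gonadotropin, cAMP and prostaglandin response, FSHR and PTGES had members at both ages. FSHR, the receptor of follicle-stimulating hormone, had a young peak of 150 bases (75557571 to 75557720 on chromosome 3, fold 1.60) and an aged one of 200 bases with the same end (fold 2.54). PTGES, prostaglandin E synthase, had the same boundaries at both ages (6790740 to 6791085 on chromosome 3) with folds of 2.62 and 1.75. The other genes of the group with a peak, 7 of 9 (young) and 1 of 3 (aged), had no member. In the inhibin, activin, BMP and TGF-beta group INHBB alone had a member, of 10 genes with a peak at each age. Among all genes with a peak 40.8% (young) and 13.8% (aged) had a member.

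In the insulin, insulin-like growth factor, PI3K and mTOR group 7 of 13 genes with a young peak and 3 of 17 with an aged peak had a member. Of the plus-strand genes 2 of 8 (young) and 2 of 9 (aged) did. On the minus strand 5 of 5 genes with a young peak had a member, IGF1 (3.12), the insulin receptor INSR (2.29), the PI3-kinase subunit PIK3CA (2.21), the receptor substrate IRS2 (1.95) and RPTOR, a subunit of mTOR complex 1 (1.68). Of minus-strand genes with an aged peak 1 of 8 did, IGF1. Among all genes with a peak the shares were 42.8% (young plus), 38.5% (young minus), 26.2% (aged plus) and 0.86% (aged minus). The group was not tested against them. INSR, PIK3CA, IRS2 and RPTOR had aged peaks labelled 3' UTR. The aged IRS2 peak nearest the gene end stopped 50 bases short of it (fold 1.95 at both ages) and the aged RPTOR peak 300 bases short (2.00). On the plus strand MTOR, the kinase itself, had an identical member at both ages (41780452 to 41780602 on chromosome 12, folds 2.08 and 2.32), and IGF2 members shared their 3' boundary (1.67 at both ages).

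Other plus-strand genes likewise had a member at both ages. These included the extracellular matrix genes LOXL2, a collagen cross-linking oxidase (1.92 at both ages), ADAMTS2, a procollagen peptidase (1.81 and 2.04), COL18A1 (1.89 and 1.64) and TIMP2. The angiogenic genes VEGFB (1.75 and 1.79) and FLT4, a receptor of lymphatic endothelium (1.59 and 1.73), did so too. So did the Hippo kinase STK3 (2.10 and 2.06), the acetyltransferase KAT5 (1.58 and 2.48) and the m6A writer subunit CBLL1 (2.94 and 2.66).

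The shares of other groups lay on both sides of the 40.8% of all young and 13.8% of all aged genes with a peak that had a member. In the cell cycle, senescence and DNA repair group 9 of 20 genes with a young peak had a member. These included the helicase WRN (3.14), CDK6 (2.71), BRCA1 (2.50), CDC25B (2.18), CDK4 (1.96) and the inhibitor CDKN1B (1.75). In the aged list 1 of 13 did, the phosphatase CDC25A (2.92), and the CDKN1B peak was labelled 3' UTR and stopped 50 bases short. Of 13 genes of apoptosis and autophagy 4 had a young member, MAP1LC3B (2.15), WIPI1 (1.89), ATG13 (1.84) and GABARAPL1 (1.75), against 0 of 11 in the aged list.

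Transcription factor genes with a young member numbered 11 of 27 with a peak, led by the homeobox genes HOXC6 (3.75) and PBX3 (3.18) and the endothelial factor ERG (2.55). In the aged list 3 of 19 had one, MEIS2 (1.70), PPARA (1.66) and TSHZ2 (1.60). The young share of 40.7% lay near the 40.8% of all genes with a young peak. Of all genes with an aged peak 13.8% had a member. Of 23 genes of WNT, Hippo and NOTCH signalling 7 had a young member, led by TCF7 (2.53), DVL1 (2.40) and RBPJ, and 1 of 12 had an aged one. TCF7 lies on the plus strand, and its aged peak was labelled 3' UTR and stopped 50 bases short. The endothelial genes CLDN5 and ROBO4, on the minus strand, had aged 3' UTR labelled peaks 48 and 49 bases short of the gene end.

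The opposite order also occurred. Of the 251 aged plus-strand members that overlapped a young peak, 31 met a 3' UTR labelled one and none labelled stop codon. A further count took all aged plus-strand members, also those, as in PRKAG1, that met a stop codon labelled young peak as well. It gave 29 pairs with a 3' UTR labelled young peak within 1 exon. In 15 of them the young boundary lay 48 to 50 bases short of the aged one. KMT2A, a histone methyltransferase on the plus strand, had a young 3' UTR labelled peak that stopped 50 bases short of the gene end (28929408 to 28929607 on chromosome 15, fold 2.00). Its aged peak reached the last base, was labelled stop codon (28929457 to 28929657) and had a fold of 3.6. PPARA had the same order, with a young 3' UTR labelled peak 50 bases short (1.73). In both genes the peak that reached the gene end carried the stop codon label. They were chosen after their values were seen.

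Genes of translation, respiration, chromatin and m6A itself were counted in the same way, beside the same 40.8% and 13.8%, and their numbers are small. Ribosomal protein genes had 3 of 13 in the young list, RPL29 (1.70), RPL14 (1.62) and RPS9 (1.61), and 0 of 3 in the aged list. Oxidative phosphorylation genes had 3 of 17, the complex I genes NDUFS3 (1.68), NDUFB7 (1.57) and NDUFA5 (1.56), and 0 of 5. Histone and DNA modifiers had 3 of 12, HDAC7 (2.01), SIRT6 (1.75) and KAT5, and 2 of 18, KMT2A and KAT5. Among m6A genes 3 of 9 had a young member, CBLL1, the scaffold VIRMA (2.56) and the reader YTHDF1 (1.62), and 1 of 4 an aged one, CBLL1. In the NRF2 and antioxidant group GSTA1 alone had a member at each age.

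**Figure D5:**
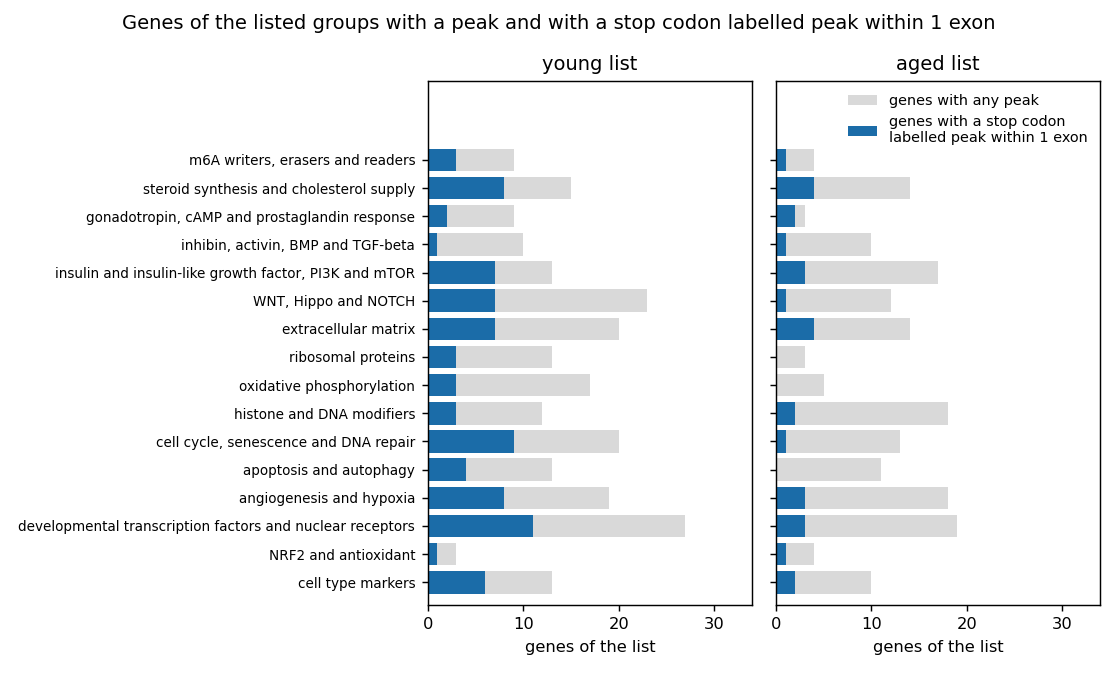
Number of genes of each of 16 gene groups with any peak (grey) and with a stop codon labelled peak within 1 exon (blue), in the young and the aged list. Transcription factors, the longest list, have the most genes in the young panel (11 of 27), and 3 groups have no such peak in the aged list.

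The bars of the gene group plot hold few genes each, and no group was tested against the others. The share of genes with a member differed by strand in the aged list, and strand and gene group were not separated in these counts. The groups were matched by gene name, and genes known by a LOC number were not counted in them. Such genes held 70 of the young plus-strand, 60 of the young minus-strand, 39 of the aged plus-strand and 1 of the aged minus-strand members.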

How the data were processed

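Immunoprecipitated RNA of ovary at 2 ages was compared. Per the labels' protocols, libraries were made from total RNA with a stranded kit. The submitters' processing notes name ChIPseeker and DESeq2, with no role. Aligner, peak caller and genome build: not given in the sources used here.

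Per the file headers, the authors give each peak a start, end, width, label, gene, p-value, adjusted p-value, fold enrichment (a linear ratio), and log10 values, which were treated as a score. The lowest deposited fold was 1.5 and the highest deposited p-value 0.049. Starts were shifted to count from 1, and coordinates are those of the deposited files.

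Gene identifiers matched a RefSeq table of ARS-UI_Ramb_v3.0 for 99.5% of peaks in each list. It gave names, chromosomes, gene ends, lengths and transcript numbers, and its coordinates are not printed because the files name no build. Gene sequences were not used here.

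Overlap was at least 1 base of span on the same strand. Intervals are Wilson 95%, and for differences Newcombe's. A count of 0 is given with the share of 3 counts. Code was tested on simulated data. Groups follow the labels for age and antibody.

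Named genes were, per age and strand, the 5 highest folds without LOC genes, the narrowest and widest members, the 5 leading overlapping pairs, genes with 2 members, the 13 aged minus-strand members, and leading members of 16 gene groups; others were named after their values were seen. Members, groups and rule were chosen with earlier results of these data known. The 48 to 50 base class, boundary pairs, transcript numbers and number formats were added after seeing the data. Alternatives were stricter folds or adjusted p, equal list lengths, genes as the unit, introns included, no LOC genes and other overlap rules. Tables were handled in pandas 2.3.3 under Python 3.11.15, intervals came from scipy 1.17.1, arrays from numpy 2.4.6 and plots from matplotlib 3.10.9.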

Additional observations from a re-analysis of the deposited data

Results flagged for a closer look

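The text of the deposited numbers differed by label. Numbers padded with spaces and written to at most 7 significant digits stood in 100% of the young and 94.1% of the aged stop codon labelled peaks within 1 exon. They stood in 0 of 2547 young and 0 of 3077 aged peaks labelled exon, 5' UTR or 3' UTR, whose p-values ran to 15 digits. Start codon labelled peaks were padded too, 25 of 25 in the young and 16 of 18 in the aged list. Whether this format bears on the labels or boundaries was not tested.

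Start codon labelled peaks on the aged minus strand lay at the other end of the gene. Of those within 1 exon, 5 of 5 began at the first base that the gene table gives (JTB, NEGR1, VEZF1, LOC101117088 and LOC101121639). On the young minus strand 1 of 3 did (PABPC4), on the young plus strand 0 of 4 and on the aged plus strand 0 of 1. The numbers are small, and this comparison was chosen after seeing the data.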

How the results depend on the processing

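Of 80 alternative values of 20 results, 56 stayed within the 95% interval of the value reported and 24 did not. Some of the 56 could not move. The equal list length was that of the whole aged list, so aged member shares and folds were the same values again. On the aged minus strand 0 of 13 members lay at the gene end, so any subset of them gave 0. With peaks of at least 2-fold only, the member share was 33.1% on the young plus and 29.5% on the young minus strand, the share at the gene end on the young plus strand 70.0% and the median width there 198 bases. With 2-fold peaks in both lists the overlap was 16.3% (young plus), 19.2% (young minus) and 38.1% (aged plus). No share over all peaks was computed at that cut. Cutting the young list to the 3656 most significant peaks raised its member shares to 40.3% (plus) and 37.3% (minus). Counted over genes the shares were 42.8%, 38.5% and 26.2% (young plus, young minus, aged plus). With peaks across introns included they were 43.1%, 39.0%, 27.5% and, on the aged minus strand, 2.58%, and the shares at the gene end were 70.6% (young plus) and 64.2% (aged plus). Within 10 bases of the gene end lay 83.2% (young plus), 81.0% (young minus) and 81.1% (aged plus). Requiring 50% of both peaks lowered the overlap to 26.2%, 24.3% and 53.4%, again with no share over all peaks computed. On the aged minus strand, with 13 members and wide intervals, it was 38.5% with 50% of both peaks and 40% with 2-fold peaks (61.5% as deposited), and the median width was 149 bases with 2-fold peaks (249 as deposited). In each setting run the aged minus-strand member share stayed the lowest of the 4. No paired analysis was possible because each age had 1 immunoprecipitate and the 2 ages carry different replicate numbers. With 1 list per age and unknown depth, the absence of a peak is not the absence of the mark.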
